A study of Homo sapiens with 6 samples.

Results

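The vacuolar H+-ATPase (V-ATPase) and the proteins of the lysosomal membrane were followed in PANC-1, a line of human pancreatic ductal carcinoma cells, after silencing of ZDHHC20, a palmitoyl acyltransferase. Cells infected with a control shRNA (shControl, n = 3) were compared with cells infected with an shRNA against ZDHHC20 (shZDHHC20, n = 3). The members were a list of 37 genes of the pump, the lysosomal membrane and the TFEB family with a 6-library mean of 1 or more, of the 27394 genes in the deposited table. They comprised 9 subunits of the V1 sector, 7 of the V0 sector, 2 accessory subunits, 16 lysosomal membrane proteins and the 3 transcription factors TFEB, TFE3 and MITF. All 37 had a row in the table and met this limit, which was part of how they were chosen.

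The sample labels give RPMI-1640 as the medium of both groups, whereas the study's methods give DMEM for its cell lines, both with fetal bovine serum. The time between infection and harvest is not given in the sources used here. The study used more than 1 shRNA against ZDHHC20, and which of them the libraries come from is not stated. Each value is a normalized count, and the sums of these values ran from 17083277 to 18007664 per library. The labels number the replicates without calling them separate cultures, so p-values measure the spread between these libraries, which may be technical. ZDHHC20 itself was at 2001, 2033 and 1940 in the shControl libraries and at 872, 779 and 893 in the shZDHHC20 libraries, 42.6% of control (log2 fold change -1.23, SE 0.065, adjusted p = 4.361e-07). The ductal keratins KRT8, KRT18 and KRT19 were abundant, with means of 56190, 19660 and 5917 in shControl, whereas KRT7 was at 86.5. Of 10 markers of blood cells, endothelium and fibroblasts, 4 had no row and the other 6 were at 41.3 or below in every library, with LUM at 0 in shControl.

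The V-ATPase is a rotary proton pump. Its cytosolic V1 sector hydrolyses ATP, and its membrane-embedded V0 sector carries protons into the lumen. The acid it makes drives lysosomal hydrolases and the exchange of ions and nutrients across the lysosomal membrane, which is lined by heavily glycosylated LAMP proteins. LAMP2 is also the gene of LAMP2A, the splice form that serves as receptor of chaperone-mediated autophagy, the degradation route that the study examined for the RNA-binding protein YTHDF3. TFEB, TFE3 and MITF are related transcription factors that bind a short E-box element, CACGTG, often with further bases on either side, near the start of many lysosomal genes. Lysosome genes are known to be expressed at high levels in pancreatic ductal carcinoma.

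Promoter windows that hold this element are shown, for members that had a window, because the TFEB family is known to bind it. Which factors bind these windows was not tested. RefSeq promoter windows of 300 bases (250 before and 50 after an annotated start, GRCh38.p14) were at hand for 30 of the 37 members, with 41 windows in all. CACGTG, which reads the same on both strands, was present in 6 of these 41 windows (14.6%) and in 2548 of all 35116 windows (7.26%). The longer TCACGTGA, which contains CACGTG, was present in 4 of the 41 (9.8%) and in 344 of all windows (0.98%). The stretch from 12 bases before the first to 12 bases after the last match is given for each of the 6 members, 5′ to 3′ on the gene's strand, with CACGTG in capitals.
ATP6V1G1, chr9:114587699-114587728, plus strand: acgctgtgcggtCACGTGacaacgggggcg
ATP6V0D1, chr16:67481199-67481228, minus strand: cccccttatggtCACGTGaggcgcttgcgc
ATP6V0B, chr1:43974891-43974938, plus strand: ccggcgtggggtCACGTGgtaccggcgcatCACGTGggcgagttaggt
LAMP1, chr13:113297035-113297255, plus strand: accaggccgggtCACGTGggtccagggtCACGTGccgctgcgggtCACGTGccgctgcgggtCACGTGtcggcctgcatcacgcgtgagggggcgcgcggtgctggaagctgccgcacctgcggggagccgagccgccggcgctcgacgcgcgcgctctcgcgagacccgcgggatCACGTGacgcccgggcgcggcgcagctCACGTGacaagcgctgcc
CLCN7, chr16:1475038-1475087, minus strand: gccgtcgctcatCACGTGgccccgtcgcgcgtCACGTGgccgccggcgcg
MCOLN1, chr19:7522571-7522627, plus strand: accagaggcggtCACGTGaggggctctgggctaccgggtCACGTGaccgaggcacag
LAMP1 held 6 copies, the first starting 192 bases before the annotated start and the last at the base just before it. ATP6V0B, CLCN7 and MCOLN1 each held 2 copies, and ATP6V1G1 and ATP6V0D1 each held 1. A match describes these letters in this window only. None of these 6 members passed the test between the groups, where 11.5% of all genes tested did. With so few members, the lack of calls is not read as a trait of them. Their log2 fold changes ran from -0.14 to 0.04 with a median of -0.06. ATP6V1A, ATP6V0E1, LAMP2 and LAPTM4B had no window, so they could not be among the 6, and are named only.

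Few of the members passed the test between shControl and shZDHHC20. At an adjusted p under 0.05 (limma with Benjamini-Hochberg adjustment over all 22189 genes tested), 4 of the 37 were lower in shZDHHC20 and 1 was higher. The 4 lower members were ATP6V1A, the catalytic subunit of V1, the cation channel gene TPCN1, and LAPTM4A and LAPTM4B, a pair of related multi-pass proteins of late endosomes and lysosomes. The member that rose was ATP6V0E1, a small membrane subunit of V0. Of all genes tested, 6.84% were called lower and 4.61% were called higher. The members' total, 5 of 37 (13.5%), was thus close to that of all genes tested (11.5%). Among genes with a mean of at least 100, where calls are more frequent, 5 of 35 members (14.3%) and 2364 of 10908 genes (21.7%) were called. The groups did not overlap for 6 of the 37 members (16.2%), against 28.6% of all genes tested.

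The sizes of change were small for most members. The log2 fold change was within 0.2 of zero for 31 of the 37, and its median was -0.02, beside 0.01 for all genes tested. The median of its absolute value was 0.09, beside 0.25 for all genes tested, which include many more genes with low values. Together the members took 0.295% to 0.300% of the normalized counts of each library, 0.298% ± 0.00176 in shControl and 0.297% ± 0.00289 in shZDHHC20 (SD, n = 3 each). In RNA from whole cultures, less RNA per cell cannot be told apart from fewer cells that carry it.

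**Figure D1:**
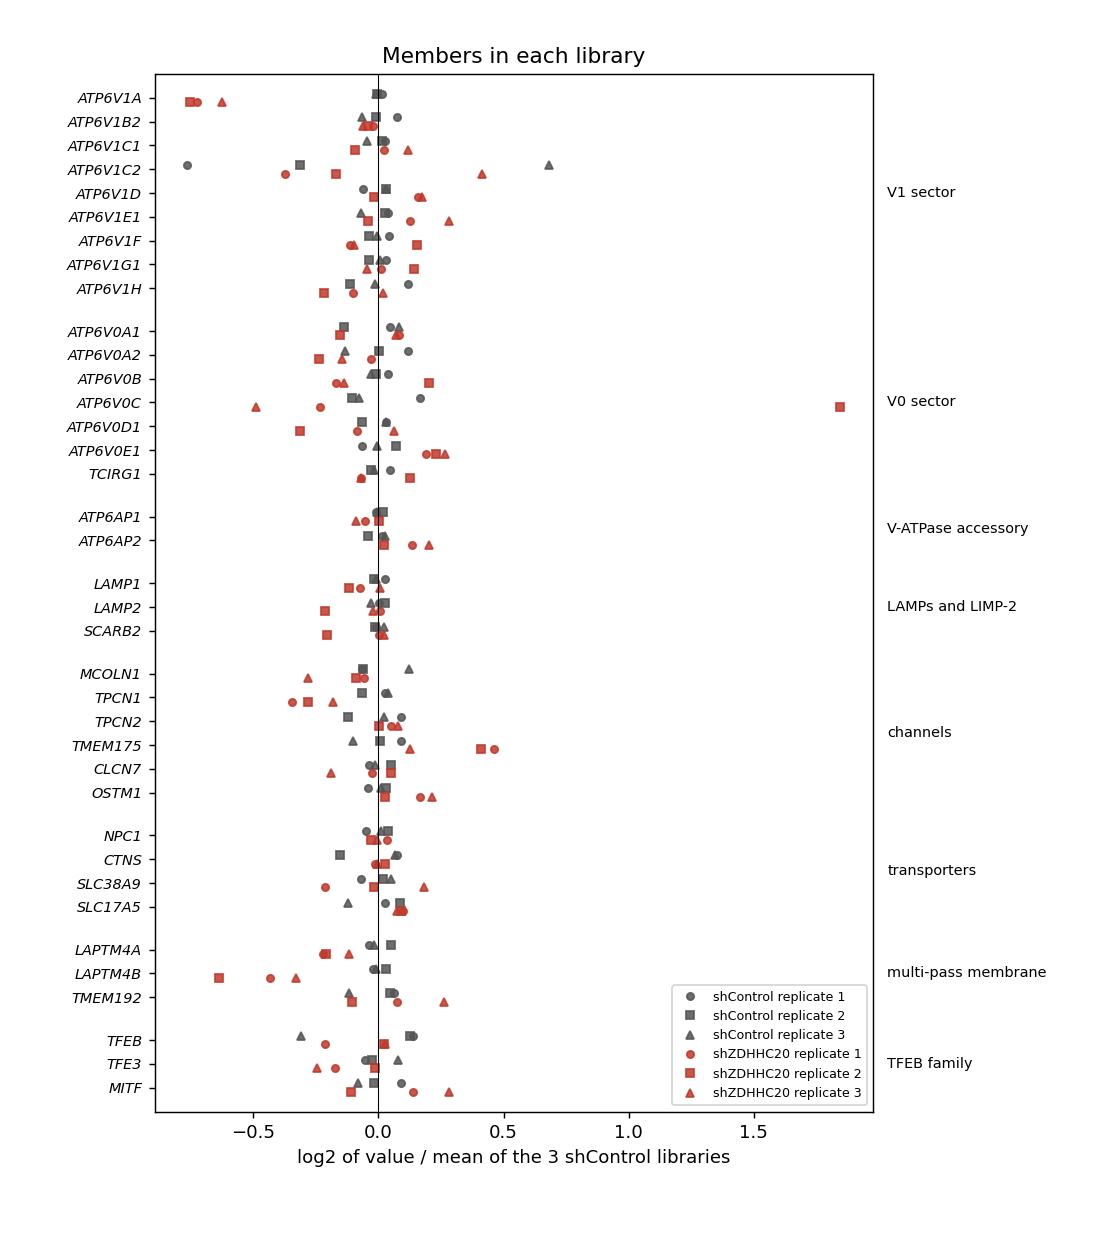
Each row is 1 of the 37 members and each point 1 library, plotted as the log2 of its normalized count over the mean of the 3 shControl libraries. Grey points are shControl and red points shZDHHC20, with the replicate given by the shape; the 3 red points of ATP6V1A lie left of its grey points, and ATP6V0C has 1 red point far to the right, at 175 against 34.6 and 41.3 in the other shZDHHC20 libraries.

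Within V1, ATP6V1A fell and no other subunit passed the test. ATP6V1A (chr3:113747019-113812056, plus strand, GRCh38) had 1055, 1039 and 1037 normalized counts in the shControl libraries and 632, 619 and 677 in the shZDHHC20 libraries. All 3 shZDHHC20 libraries were well below all 3 controls. The mean fell from 1044 ± 9.86 to 642 ± 30.3 (SD, n = 3), which is 61.6% of control. The log2 fold change was -0.70 (SE 0.065, 95% interval -0.84 to -0.56, adjusted p = 2.08e-05). It was past the threshold under all 15 alternatives tried, with adjusted p from 9.215e-07 to 0.03489. The annotation places the noncoding gene AC108693.2 over ATP6V1A on the other strand, and its row held at most 4.81 in any library.

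The other 8 V1 subunits had log2 fold changes from -0.10 to 0.12, and none of their groups was separated. ATP6V1B2, the B subunit that alternates with the A subunit in the ATP-hydrolysing ring, was at 849, 801 and 770 in shControl and at 794, 783 and 774 in shZDHHC20 (log2 fold change -0.04, SE 0.066, 95% interval -0.18 to 0.10). The ranges of B2 in the groups overlapped. The ratio of ATP6V1A to ATP6V1B2 normalized counts was 1.24, 1.30 and 1.35 in the shControl libraries and 0.796, 0.790 and 0.874 in the shZDHHC20 libraries. This ratio tracks the groups within a library and is not a ratio of molecules, since the transcripts differ in length.

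Subunits D and F form the central rotor of V1. ATP6V1D was at 833 ± 30.1 and 897 ± 63.9 in shControl and shZDHHC20, and ATP6V1F at 749 ± 21.1 and 743 ± 80.0 (SD, n = 3). Subunits E and G make up the outer stalks that hold the ring in place. ATP6V1E1 was at 1706 ± 69.1 and 1865 ± 208, and ATP6V1G1 at 1070 ± 26.4 and 1099 ± 74.9. For none of these 4 genes were the groups separated. ATP6V1H, a regulatory subunit, was at 617 ± 49.5 and 577 ± 47.0.

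Subunit C links the stalks to V0 and is released when the sectors come apart. ATP6V1C1, the widely expressed form, was at 1689 ± 45.4 and 1711 ± 127, and ATP6V1C2, a tissue-restricted form, at 13.7 ± 7.35 and 13.7 ± 4.05. Per kilobase of principal transcript, ATP6V1C1 was at 301 ± 8.09 and ATP6V1C2 at 4.42 ± 2.37 in shControl, so C1 was the higher C gene in these values. The gene PDIA6 lies over ATP6V1C2 on the other strand and was at 2663 to 2996 in the 6 libraries. Whether counting used strand is not given, so the low values of ATP6V1C2 are uncertain. The interval for ATP6V1C2 was wide, from -0.91 to 1.09 on the log2 scale, and changes inside that range were not detectable at its level.

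Within V0, ATP6V0E1 rose and no other subunit passed the test. ATP6V0E1 (chr5:172983757-173035445, plus strand, GRCh38) had 1963, 2156 and 2044 normalized counts in shControl and 2345, 2408 and 2472 in shZDHHC20. The lowest shZDHHC20 library was above the highest control. The mean rose from 2055 ± 96.9 to 2408 ± 63.8 (117% of control, log2 fold change 0.23, SE 0.054, adjusted p = 0.01517). The call held under 11 of the 15 alternatives. It was lost without a mean-variance trend and when replicate 1 or 3 of shControl or replicate 3 of shZDHHC20 was left out, with adjusted p over all alternatives from 0.002424 to 0.1656. The annotation names 4 pseudogenes of ATP6V0E1, of which 1 had a row, at 1.001 or below.

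The a subunit of V0, which guides protons to and from the rotor and helps to place the pump on a given membrane, is encoded by several genes. TCIRG1, the a3 gene best known from osteoclasts, was at 1747, 1656 and 1668 in shControl and at 1610, 1845 and 1610 in shZDHHC20. ATP6V0A1 was at 808 ± 64.5 and 810 ± 72.9, and ATP6V0A2 at 444 ± 38.8 and 404 ± 29.6. Per kilobase of principal transcript, the shControl levels were 632 ± 18.5 for TCIRG1, 267 ± 21.3 for ATP6V0A1 and 67.8 ± 5.92 for ATP6V0A2 (SD, n = 3). Neighbours in this order were separated by more than their spread, and the order was the same with all exons of each gene as the length. The 95% intervals of the changes were -0.14 to 0.13 for TCIRG1, -0.18 to 0.18 for ATP6V0A1 and -0.33 to 0.06 for ATP6V0A2.

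The rotor ring of V0 is built from the c subunits ATP6V0C and ATP6V0B and is coupled to V1 by subunit d, ATP6V0D1. ATP6V0B was at 1026 ± 23.9 and 1009 ± 150, and ATP6V0D1 at 638 ± 23.7 and 594 ± 76.9. ATP6V0C had 54.6, 45.2 and 46.1 normalized counts in shControl and 41.3, 175 and 34.6 in shZDHHC20. The high value was that of replicate 2 alone, 4.60 times the mean of replicates 1 and 3. The log2 fold change was 0.38 with all libraries (SE 0.45, adjusted p = 0.6677) and turned to -0.36 without shZDHHC20 replicate 2. These values are uncertain for a further reason: 72.1% of the exonic bases of ATP6V0C are shared on the same strand with the protein-coding genes AC093525.2 and AC093525.1, which had no row, and the annotation names 4 pseudogenes of it.

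The balance of V1 against V0 was compared within each library as the mean log2 level of the 9 V1 genes minus that of the 7 V0 genes. It was -0.13, -0.03 and 0.06 in the shControl libraries and -0.09, -0.38 and 0.06 in the shZDHHC20 libraries. Replicate 2 of shZDHHC20 was the lowest, and the others overlapped. Without ATP6V0C the balance was -0.65 ± 0.079 in shControl and -0.70 ± 0.061 in shZDHHC20, a difference of -0.05 that was smaller than either SD. These SDs include the spread of ATP6V1C2, a low V1 gene that was kept, at 8.08, 11.1 and 22.0 in shControl. Its log2 values had an SD of 0.73 in shControl, where ATP6V1H, the next most variable V1 gene, had 0.12. The balance without ATP6V1C2 was not computed, so a small shift between the groups could be hidden. The median log2 fold change was 0.02 for V1 and -0.0043 for V0. ATP6V1A and ATP6V0E1 were each the only called member of their sector.

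**Figure D2:**
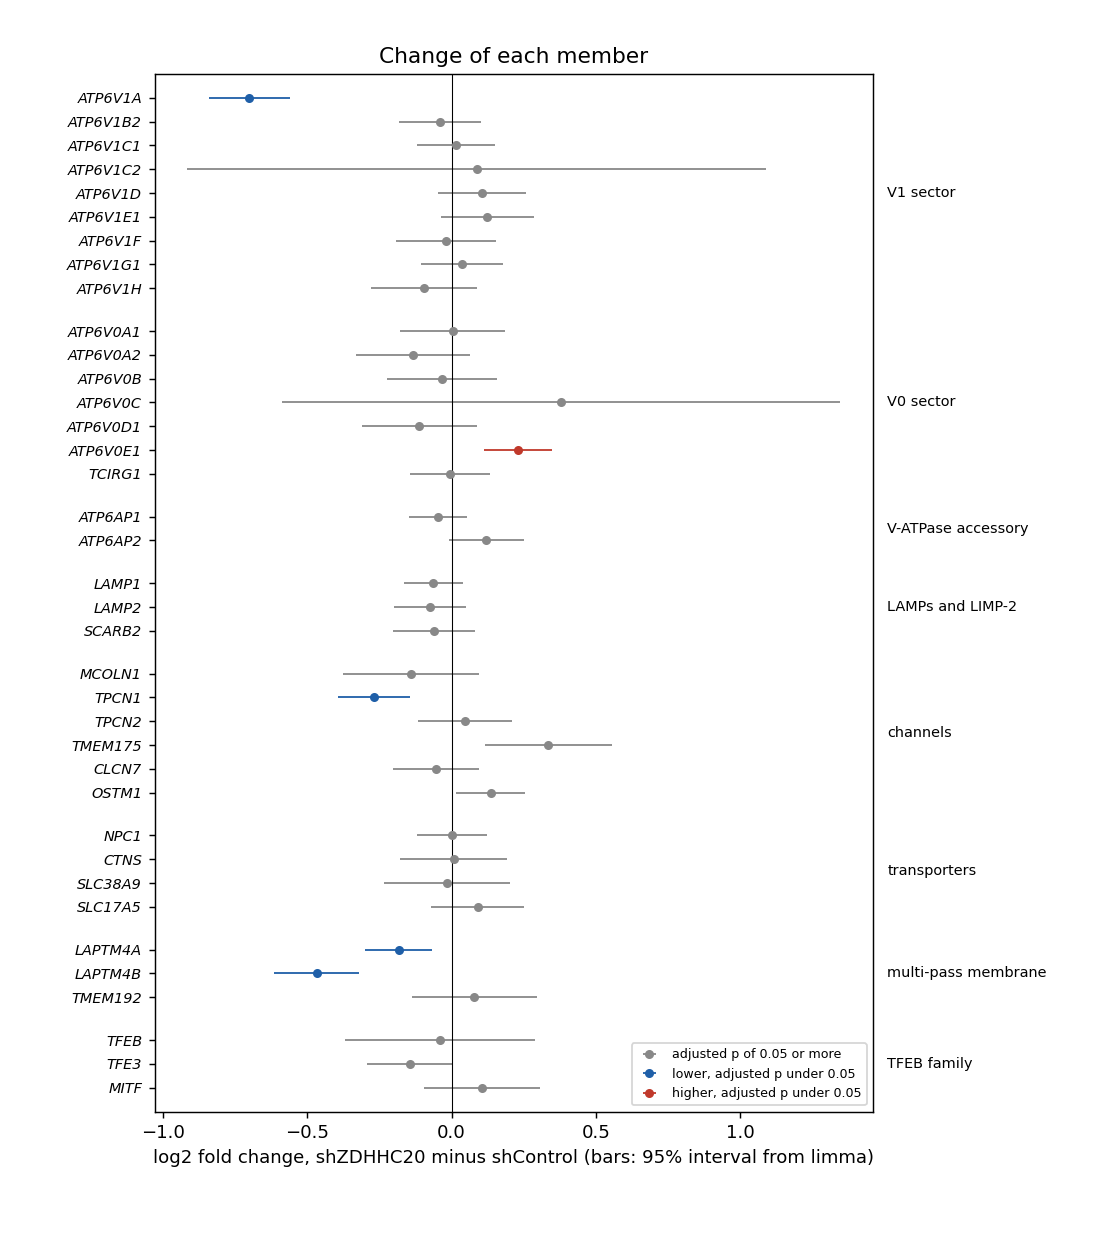
The log2 fold change of each member, shZDHHC20 minus shControl, is shown with its 95% interval from limma. Blue marks the 4 members called lower and red the 1 called higher at an adjusted p under 0.05; most intervals are narrow and cross 0, and those of ATP6V1C2 and ATP6V0C are wide.

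The accessory subunits ATP6AP1, needed for assembly of V0, and ATP6AP2, also called the prorenin receptor, were not called. ATP6AP1 was at 4480 ± 45.3 and 4336 ± 140 (log2 fold change -0.05). ATP6AP2 was at 1628, 1569 and 1642 in shControl and at 1770, 1639 and 1855 in shZDHHC20 (log2 fold change 0.12, adjusted p = 0.2471). For ATP6AP2, replicates 1 and 3 of shZDHHC20 were above all controls and replicate 2 was within their range.

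The genes of the LAMP and LIMP-2 glycoproteins, which are among the most abundant proteins of the lysosomal membrane, did not pass the test. LAMP2 had 5649, 5736 and 5519 normalized counts in shControl and 5667, 4864 and 5551 in shZDHHC20. The shZDHHC20 libraries 1 and 3 lay within the control range, and only replicate 2 lay below it. The log2 fold change of LAMP2 was -0.07 (SE 0.057, 95% interval -0.20 to 0.05, adjusted p = 0.476). The table gives 1 value per gene, so the LAMP2A splice form was not separated from the other LAMP2 transcripts. LAMP1 was at 4881 ± 81.2 and 4676 ± 205 (log2 fold change -0.06), and SCARB2, the gene of LIMP-2, which carries glucocerebrosidase to lysosomes, at 1719 ± 21.6 and 1652 ± 140 (log2 fold change -0.06).

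Of the 6 genes listed as ion channels and their partners, TPCN1 fell and no other passed the test. TPCN1 (chr12:113221050-113298585, plus strand, GRCh38) encodes an endolysosomal cation channel and had 2366, 2224 and 2388 normalized counts in shControl and 1833, 1912 and 2050 in shZDHHC20. The highest shZDHHC20 library was below the lowest control. The mean fell from 2326 ± 89.1 to 1932 ± 110 (83.1% of control, log2 fold change -0.27, SE 0.058, adjusted p = 0.009084). The call held under 11 of the 15 alternatives and was lost without a mean-variance trend and when replicate 1 or 3 of shControl or replicate 1 of shZDHHC20 was left out, with adjusted p from 0.001857 to 0.1541. The gene IQCD lies over TPCN1 on the other strand and was at 172 to 225 in the 6 libraries. The libraries mark strand, but whether counting used it is not given in the sources used here.

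Its paralog TPCN2 was at 644, 556 and 614 in shControl and at 626, 605 and 639 in shZDHHC20 (log2 fold change 0.05, 95% interval -0.12 to 0.21). The shZDHHC20 values of TPCN2 all lay inside the control range. Per kilobase of principal transcript, TPCN1 was at 441 ± 16.9 and TPCN2 at 206 ± 15.1 in shControl, and at 366 ± 20.8 and 213 ± 5.90 in shZDHHC20. TPCN1 was thus the higher of the pair in both groups. Whether the changes of TPCN1 and TPCN2 differ from each other was not tested.

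TMEM175, a lysosomal potassium and proton channel linked to Parkinson disease, was just outside the threshold. It had 353, 332 and 308 normalized counts in shControl and 456, 440 and 362 in shZDHHC20, and every shZDHHC20 library was above every control. The log2 fold change was 0.33 (SE 0.10, 95% interval 0.11 to 0.55, adjusted p = 0.05095), and the adjusted p was under 0.05 in 6 of the 15 alternatives, with a range from 0.01049 to 0.2292. Leaving out shZDHHC20 replicate 3 was 1 of these 6 (adjusted p = 0.0194). OSTM1, the partner that stabilizes the chloride and proton exchanger CLCN7, was at 3507, 3691 and 3641 in shControl and at 4049, 3681 and 4192 in shZDHHC20. Replicates 1 and 3 were above all controls and replicate 2 was not (log2 fold change 0.14, adjusted p = 0.1493). CLCN7 was at 1292 ± 39.7 and 1247 ± 103, and MCOLN1, the calcium-releasing channel TRPML1, at 234 ± 17.7 and 212 ± 17.4 (log2 fold change -0.14, 95% interval -0.38 to 0.09).

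None of the 4 transporter genes was called, and their log2 fold changes ran from -0.02 to 0.09. NPC1, which exports cholesterol from the lysosome, was at 1428 ± 44.8 in shControl and 1428 ± 31.8 in shZDHHC20 (log2 fold change 0.00, 95% interval -0.12 to 0.12). CTNS, the cystine exporter, was at 430 ± 37.8 and 431 ± 6.49, and SLC38A9, an amino acid transporter that reports lysosomal arginine to mTORC1, at 391 ± 16.9 and 389 ± 52.9. SLC17A5, the sialic acid exporter, was at 587 ± 42.5 and 623 ± 5.37.

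The LAPTM4 genes were both lower in shZDHHC20. LAPTM4B (chr8:97775057-97853013, plus strand, GRCh38), whose expression is often raised in carcinomas, had 3594, 3721 and 3620 normalized counts in shControl and 2700, 2343 and 2899 in shZDHHC20. All 3 shZDHHC20 libraries lay below all controls, and replicate 2 was the lowest. The mean fell from 3645 ± 67.0 to 2647 ± 281 (72.6% of control, log2 fold change -0.47, SE 0.068, adjusted p = 0.0006403), and the call held under 14 of the 15 alternatives. It was lost without a mean-variance trend, where the adjusted p was 0.1024, beside a lowest adjusted p of 6.601e-06 over the alternatives. Of 2 named pseudogenes of LAPTM4B, 1 had a row, at 2.01 or below.

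LAPTM4A (chr2:20032650-20052028, minus strand, GRCh38) had 2331, 2481 and 2367 normalized counts in shControl and 2051, 2072 and 2204 in shZDHHC20. The groups did not overlap, but the gap between them was small. The mean fell from 2393 ± 78.1 to 2109 ± 82.9 (88.1% of control, log2 fold change -0.18, SE 0.054, adjusted p = 0.0437). The call held under 7 of the 15 alternatives, with adjusted p from 0.005219 to 0.2249, and was lost without any 1 of the shControl libraries, without shZDHHC20 replicate 1, with no filter, with quantile normalization, with the replicate number as a block and without a mean-variance trend. Within each library the ratio of LAPTM4B to LAPTM4A normalized counts was 1.54, 1.5 and 1.53 in shControl and 1.32, 1.13 and 1.32 in shZDHHC20. LAPTM4B was thus lower relative to LAPTM4A in every shZDHHC20 library. Which of the pair has the higher level per length depended on the length used, and no order is given. TMEM192, another multi-pass protein and a common lysosome tag, was at 420 ± 28.8 and 445 ± 56.8.

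The TFEB family, which acts on many of these genes, showed no call with all libraries. TFE3 had 1443, 1472 and 1582 normalized counts in shControl and 1329, 1487 and 1264 in shZDHHC20 (log2 fold change -0.14, SE 0.069, adjusted p = 0.231). MITF had 776, 719 and 689 in shControl and 801, 675 and 885 in shZDHHC20 (log2 fold change 0.11, SE 0.093, adjusted p = 0.5436). For both genes, replicates 1 and 3 of shZDHHC20 lay outside the control range, below it for TFE3 and above it for MITF, and replicate 2 did not lie with them. TFEB had 145, 144 and 106 in shControl and 113, 133 and 134 in shZDHHC20, and its shZDHHC20 values lay inside the control range (log2 fold change -0.04, SE 0.15, adjusted p = 0.912). Per kilobase of principal transcript, the shControl levels were 439 ± 21.5 for TFE3, 151 ± 9.20 for MITF and 55.8 ± 9.31 for TFEB. Each was separated from the next by more than its spread, and TFE3 was the highest of the family on either length. These are transcript levels, and the activity of these factors is set largely by phosphorylation and entry into the nucleus, which the libraries do not measure.

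**Figure D3:**
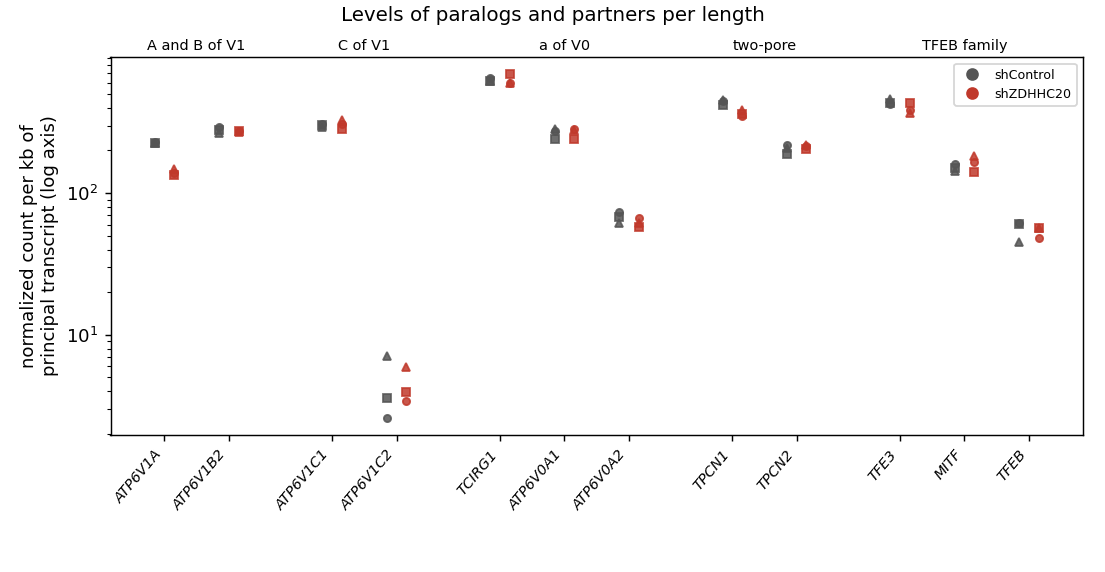
Normalized counts per kilobase of principal transcript (log axis) are shown for paralogs and for the A and B2 subunits of V1, with 1 point per library, grey for shControl and red for shZDHHC20 and shapes for replicates 1 (circle), 2 (square) and 3 (triangle). TCIRG1 is the highest a subunit, ATP6V1C1 lies far above ATP6V1C2 and TFE3 is the highest of its family; for A and B2 the order depends on the length used (227 and 281 in shControl here, 203 and 103 per kilobase of all exons).

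Replicate 2 of shZDHHC20 stood apart from its partners, and several of the values above turned on it. Over the 35 members with a mean of at least 100, the SD of log2 differences was 0.095 to 0.125 between pairs of shControl libraries. It was 0.132 between shZDHHC20 replicates 1 and 3, 0.161 between 1 and 2, and 0.205 between 2 and 3. Between the groups it was 0.197 to 0.241. Relative to the mean of replicates 1 and 3, replicate 2 was higher in ATP6V0B by 0.36, in ATP6V1F by 0.26, in TFE3 by 0.20 and in TCIRG1 by 0.20 on the log2 scale. It was lower in MITF (-0.32), ATP6V0D1 (-0.30), TMEM192 (-0.28), LAPTM4B (-0.26) and ATP6V1E1 (-0.24).

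These deviations rose with the GC content of the members' transcripts, with Pearson's r of 0.63 and Spearman's rho of 0.58 across the 35 genes. They were weakly related to the log2 of transcript length (r = -0.34, rho = -0.27). The points share 1 library and are not independent replicates, so no p is given. The part of GC content in the members' changes was not tested beyond a correction for it, under which LAMP2 was called lower (log2 fold change -0.13, adjusted p = 0.03991, against 0.913 at the highest of its alternatives) and TMEM175 was called higher.

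Without replicate 2, 5 members were called lower and 5 higher. The 5 calls with all libraries were kept, and ATP6V1E1, ATP6AP2, OSTM1 and MITF were gained as higher and TFE3 as lower. TFE3 was then at -0.21 (adjusted p = 0.009786, range over its alternatives up to 0.5396) and MITF at 0.21 (adjusted p = 0.04122, range up to 0.9424). Calls over all genes also rose without it, from 2541 of 22189 to 4454 of 22258.

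**Figure D4:**
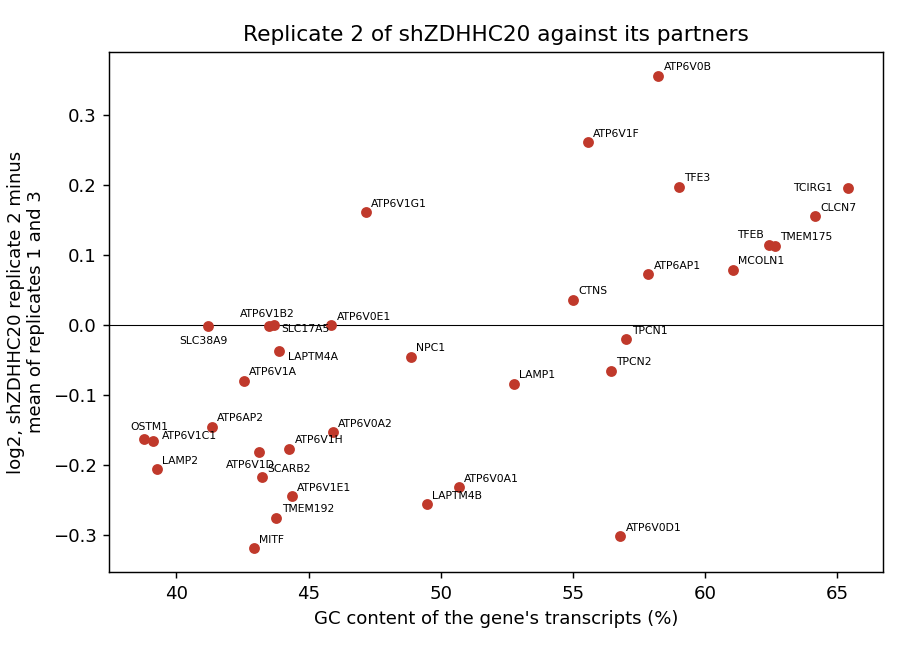
For the 35 members with a mean of at least 100, the log2 difference of shZDHHC20 replicate 2 from the mean of replicates 1 and 3 is plotted against the GC content of the gene's transcripts in percent. Most genes of high GC content such as TCIRG1 and CLCN7 lie above 0 and most genes of low GC content such as LAMP2 and MITF lie below it (Pearson's r = 0.63). ATP6V0D1, with a GC content of 56.8%, lies at -0.30, and TPCN1 and TPCN2 lie slightly below 0.

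Genes outside the list that act with the V-ATPase were read from further lists. Of 7 other V-ATPase isoform genes, 4 had a row and passed the filter, and 1 was called lower, beside 6.84% of all genes tested. This was ATP6V1G2, a G subunit best known from neurons, at 37.4, 30.1 and 31.0 in shControl and at 14.8, 14.1 and 11.6 in shZDHHC20 (log2 fold change -1.28, adjusted p = 0.01631). It shares 13.7% of its exonic bases with the readthrough gene ATP6V1G2-DDX39B on the same strand. ATP6V0E2, the paralog of ATP6V0E1 and named here after its values were seen, was at 633, 604 and 622 in shControl and at 474, 567 and 513 in shZDHHC20 (log2 fold change -0.26, adjusted p = 0.05395). All of its shZDHHC20 libraries were below all controls, whereas those of ATP6V0E1 were above, and the difference between the paralogs' changes was not tested.

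Of 13 genes of V-ATPase assembly and regulation, such as VMA21, WDR7 and DMXL1, none was called with limma (11.5% of all genes tested were), and 2 had an unadjusted p under 0.05. A list of 15 genes covered the Ragulator, Rag and folliculin group, which tethers mTORC1 to the lysosome next to the V-ATPase, and related genes. Of these, 1 was called higher and 1 lower (13.3% together, beside 11.5% of all genes tested). FNIP2, a folliculin partner, rose from 368 ± 19.4 to 445 ± 13.4 (log2 fold change 0.28, adjusted p = 0.04408). SLC36A1, a lysosomal amino acid transporter listed as a related gene, fell from 449 ± 61.0 to 353 ± 15.9 (log2 fold change -0.34, adjusted p = 0.04531). Not all of the 30 further genes listed with lysosomal membrane proteins are specific to lysosomes. Of these 30, 4 were called lower and 4 higher (26.7% together), with a median log2 fold change of 0.02. Beside this stand 11.5% of all genes tested and 21.7% of those averaging 100 or more. The 3 with the smallest adjusted p all fell. They were ANPEP, a peptidase of the cell surface (log2 fold change -0.59), LITAF, a late endosomal membrane protein (-0.54), and RAB7A, the GTPase of late endosomes (-0.46). The 4 higher genes, named after their values were seen, were LAMP3, TMEM106B, SLC46A3 and VAMP7. LAMP3, a LAMP paralog, was at 62.7, 76.3 and 59.1 in shControl and at 126, 119 and 167 in shZDHHC20 (log2 fold change 1.05, adjusted p = 0.00161), and every shZDHHC20 library was above every control. TMEM106B, a late endosomal and lysosomal membrane protein, rose from 7290 ± 101 to 8899 ± 640 (log2 fold change 0.29, adjusted p = 0.003402).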

How the data were processed

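RNA-seq was measured in 3 shControl and 3 shZDHHC20 libraries of PANC-1 cells, made from total RNA with a directional kit. The authors deposited 1 table with 1 value per gene and library, a signal that is never negative. It is named FPKM, but each library's values are whole multiples of its smallest value above 0 (0.939 to 1.06), as counts divided by a size factor are, and no division by length is seen. The values are called normalized counts and were used as a continuous signal. Whole reads were not recovered from these steps, so absolute depth and counting intervals are not given. The labels name hg19. The aligner, counter and annotation are not given in the sources used here. The columns, named siZDHHC20 and NC, were matched to the sample titles by group and number.

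Names came from the reference table for 27175 of 27394 identifiers and from GENCODE 29 (GRCh38) for 219. GENCODE 29 also gave positions, overlaps, lengths and GC content. Promoter windows are from RefSeq, GRCh38.p14. Values were tested in R 4.3.3 with limma 3.58.1 (lmFit, eBayes with a mean-variance trend) on log2(value + 0.1), which understates changes of low genes, where the mean was 1 or more. Two-sided p-values were given Benjamini-Hochberg adjustment over all genes tested. Figures were drawn in Python 3.11.15 with matplotlib 3.10.9. Exact permutation of 3 against 3 libraries cannot go below p = 0.1 and was not used. The scripts were tested on simulated data.

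The members and lists were chosen with earlier results of these data known, so no list is tested. All members are accounted for. Values in every library are given for those called, LAMP2 and the TFEB family, and for others that illustrate a role. Of other lists, up to 3 called genes are named, and further genes are marked where they were named after their values were seen. Alternatives were other pseudocounts, filters and normalizations, no trend, a replicate block, each library left out and, added after the data were seen, a GC correction (a spline of transcript GC content with 4 degrees of freedom, from genes averaging 10 or more). Same-numbered libraries did not deviate together (correlations -0.095, -0.156 and -0.077 over 10908 genes), so the main fit has no block.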

Additional observations from a re-analysis of the deposited data

How the results depend on the processing

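The number of members called higher was 1, and became 2 with a pseudocount of 1, a mean of at least 5, quantile normalization, the replicate block or the GC correction, an alternative chosen after seeing the data, and 0 without a mean-variance trend. In each of the first 5 settings TMEM175 was gained. Without the trend 1 member was called lower, ATP6V1A, and calls over all genes dropped from 2541 to 351. Same-numbered libraries did not deviate together, which does not show whether they were prepared as pairs. With the number as a block, LAPTM4A was lost and 1942 genes were called in all. The median log2 fold change of the lysosomal membrane members moved from -0.035 to -0.012 with quantile normalization. When single libraries were left out, the members called lower ranged from 2 to 5 and those called higher from 0 to 5. Calls over all genes moved too, from 1233 of 22244 without shControl replicate 1 to 4454 of 22258 without shZDHHC20 replicate 2. The medians then ranged from -0.03 to 0.03 for V1, from -0.07 to 0.03 for V0 and from -0.050 to -0.0058 for the lysosomal membrane members, and the V1 to V0 difference from -0.20 to 0.02. The most calls came without shZDHHC20 replicate 2. The change of TFEB reversed to 0.0088 with the GC correction and ranged from -0.19 to 0.038 with libraries left out. ATP6V0C ranged from -0.36 to 0.81, reversing to -0.36 without shZDHHC20 replicate 2. The cause of these moves was not tested. The planned count tests on whole reads were not run: although the values rise in whole steps, they were kept as a continuous signal. Levels near that of ATP6V1C2 are too low to show a change of the size seen in the other members. For ATP6V0C, the SD of the log2 values was 0.15 in shControl and 1.28 in shZDHHC20, where replicate 2 was high.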
